A study of Mus musculus with 11 samples.

Results

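The genes Cacna1d, Slc10a3, Mid1, Emp1, Fam180a, Tmem176b, Fbxl22, Mpv17l2 and Mr1 had more RNA and a lower count of the histone mark H3K4me3 in mouse ovarian granulosa cells 48 h after equine chorionic gonadotropin (eCG) than at 0 h. They are 9 of 14357 genes tested in both assays, and they were picked by name for that opposite change, so the differences between 0 h and 48 h given here for them are descriptions and carry no test. Granulosa cells surround the oocyte within the ovarian follicle, and eCG acts in mice like follicle-stimulating hormone (FSH). All groups were C57BL/6: untreated cells (0 h) and cells collected 48 h into eCG. RNA came from 3 libraries of each group (postnatal day 21, follicular puncture). Chromatin immunoprecipitation with sequencing (ChIP-seq) gave 2 H3K4me3 libraries of each group, whose labels state no age. The labels call the treatment both eCG and FSH, and none ties an RNA library to an H3K4me3 library. There is no untreated 48 h group among the samples, so eCG and elapsed time cannot be told apart. Follicular puncture can carry other cells, and in bulk samples fewer cells of a type and less RNA per cell cannot be told apart.

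H3K4me3 is placed by methyltransferases of the SET1 and MLL families on nucleosomes around transcription start sites, above all at promoters rich in CpG dinucleotides, and genes that are transcribed usually carry it. A gene's RNA level also depends on which of its start sites is used and on how stable the transcript is, which the mark does not measure. The 9 genes come from different protein families. They encode a calcium channel subunit (Cacna1d), an orphan relative of the bile acid transporters (Slc10a3), membrane proteins (Emp1 and Tmem176b), ubiquitin ligase components (Mid1 and Fbxl22), a mitochondrial inner membrane protein (Mpv17l2), an antigen-presenting molecule (Mr1) and a protein of little known function (Fam180a).

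Promoter sequences are shown first because H3K4me3 is known to follow the CpG content of start sites. RefSeq windows of 300 bases (250 before to 50 after a transcription start, build GRCm38.p6) were found for 8 of the 9 genes, 14 windows in all, and not for Slc10a3. CG dinucleotides are in capitals, and each window is written along the strand of its gene. Shown are the start of Fbxl22, the gene with the largest RNA difference, the upstream start of Emp1, the only start listed for Mr1, the start of Mpv17l2, and the upstream and internal starts of Cacna1d.
Fbxl22, chr9:66514544-66514843, minus strand: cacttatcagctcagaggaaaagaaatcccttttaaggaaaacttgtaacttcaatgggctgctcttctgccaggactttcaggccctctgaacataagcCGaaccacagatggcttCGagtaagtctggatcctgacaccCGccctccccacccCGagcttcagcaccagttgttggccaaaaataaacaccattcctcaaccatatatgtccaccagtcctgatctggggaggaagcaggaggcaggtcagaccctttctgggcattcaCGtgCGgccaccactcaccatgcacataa
Emp1, chr6:135362681-135362980, plus strand: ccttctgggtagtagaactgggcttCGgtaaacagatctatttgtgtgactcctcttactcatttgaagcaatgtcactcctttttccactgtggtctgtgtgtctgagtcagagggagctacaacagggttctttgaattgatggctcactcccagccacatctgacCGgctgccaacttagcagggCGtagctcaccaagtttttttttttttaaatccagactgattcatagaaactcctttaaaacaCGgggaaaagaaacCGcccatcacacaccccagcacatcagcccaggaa
Mr1, chr1:155146765-155147064, minus strand: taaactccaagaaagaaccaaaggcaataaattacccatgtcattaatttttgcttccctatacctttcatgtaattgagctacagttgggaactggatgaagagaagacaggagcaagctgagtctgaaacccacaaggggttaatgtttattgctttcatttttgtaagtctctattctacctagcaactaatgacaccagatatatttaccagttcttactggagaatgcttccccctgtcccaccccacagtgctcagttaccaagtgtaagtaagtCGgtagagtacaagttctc
Mpv17l2, chr8:70760872-70761171, minus strand: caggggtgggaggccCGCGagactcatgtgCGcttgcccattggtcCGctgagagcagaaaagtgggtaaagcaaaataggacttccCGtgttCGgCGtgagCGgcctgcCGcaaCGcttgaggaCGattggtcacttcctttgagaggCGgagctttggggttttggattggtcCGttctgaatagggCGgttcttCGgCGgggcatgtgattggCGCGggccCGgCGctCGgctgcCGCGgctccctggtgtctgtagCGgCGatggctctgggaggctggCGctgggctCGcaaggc
Cacna1d upstream, chr14:30491107-30491406, minus strand: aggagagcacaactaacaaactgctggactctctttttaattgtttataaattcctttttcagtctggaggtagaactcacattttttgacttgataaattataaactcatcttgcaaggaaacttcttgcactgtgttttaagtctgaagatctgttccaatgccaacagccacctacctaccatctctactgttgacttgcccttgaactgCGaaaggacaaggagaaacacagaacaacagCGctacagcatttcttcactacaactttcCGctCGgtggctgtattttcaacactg
Cacna1d internal, chr14:30353437-30353736, minus strand: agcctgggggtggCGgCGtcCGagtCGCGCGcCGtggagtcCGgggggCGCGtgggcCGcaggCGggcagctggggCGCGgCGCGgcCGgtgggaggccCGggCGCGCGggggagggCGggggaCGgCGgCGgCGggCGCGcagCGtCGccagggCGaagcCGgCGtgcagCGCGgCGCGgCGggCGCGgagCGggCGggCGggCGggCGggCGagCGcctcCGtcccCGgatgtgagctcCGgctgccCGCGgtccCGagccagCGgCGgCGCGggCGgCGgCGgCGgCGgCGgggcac

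Most of these starts were poor in CG. The windows above held 6 CG dinucleotides at Fbxl22, 5 at Emp1, 1 at Mr1, 27 at Mpv17l2, and 4 and 63 at the upstream and internal starts of Cacna1d. Over 14449 windows of genes tested in both assays the median was 19, and 12 of the 14 windows of the listed genes lay below it. The exceptions were Mpv17l2 and the internal start of Cacna1d, which held more CG than 99.9% of all windows. Taking the richest window of each gene, the median was 6.5 for the 8 listed genes and 21 for 11343 genes with a window. Fewer than 10 CG were found in the richest window of 5 of the 8 listed genes (62.5%), against 17.4% of the 11343 genes, 37.5% of 317 genes with lower H3K4me3 and 10.8% of 400 genes in which RNA and H3K4me3 were both higher. These shares are descriptions of a short list.

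Sequence motifs were searched on both strands of the same windows. The cAMP response element TGACGTCA was in 0 of the 14 windows and in 2.87% of all windows, and its core TGACG, which lies within the full element, was in 0 and 29.1%. CAAGGTCA, a form of the site bound by NR5A receptors, was in 0 of 14 windows and in 1.07% of all. The GC box GGGCGG was found in 4 of 14 windows (60.5% of all), TATAAA in 1 (7.48%), the upstream window of Cacna1d, and the forkhead form GTAAACA in 2 (2.51%), the upstream windows of Emp1 and Mid1. The cAMP element, its core and the GC box each contain CG, and 12 of the 14 windows lay below the CG median. The 14 windows come from 8 genes, those of Tmem176b overlap, and no motif count was tested.

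The list was read against all genes. Counts were scaled to library size with TMM factors and are given as CPM, and a gene was called when edgeR's quasi-likelihood test gave an adjusted p under 0.05. All 9 genes were called higher in RNA and lower in H3K4me3 in this way, beside 16.0% of 14401 genes called higher in RNA, 2.08% of 24476 called lower in H3K4me3 and 0.0697% of 14357 called in both, and nothing is read from their calls because the same contrasts chose them. H3K4me3 was lower at 10 (0.435%) of 2301 genes with higher RNA, at 224 (9.84%) of 2277 with lower RNA and at 431 (3.0%) of all 14357. The reverse pair, lower RNA with higher H3K4me3, was seen at 105 genes (0.731%).

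**Figure D1:**
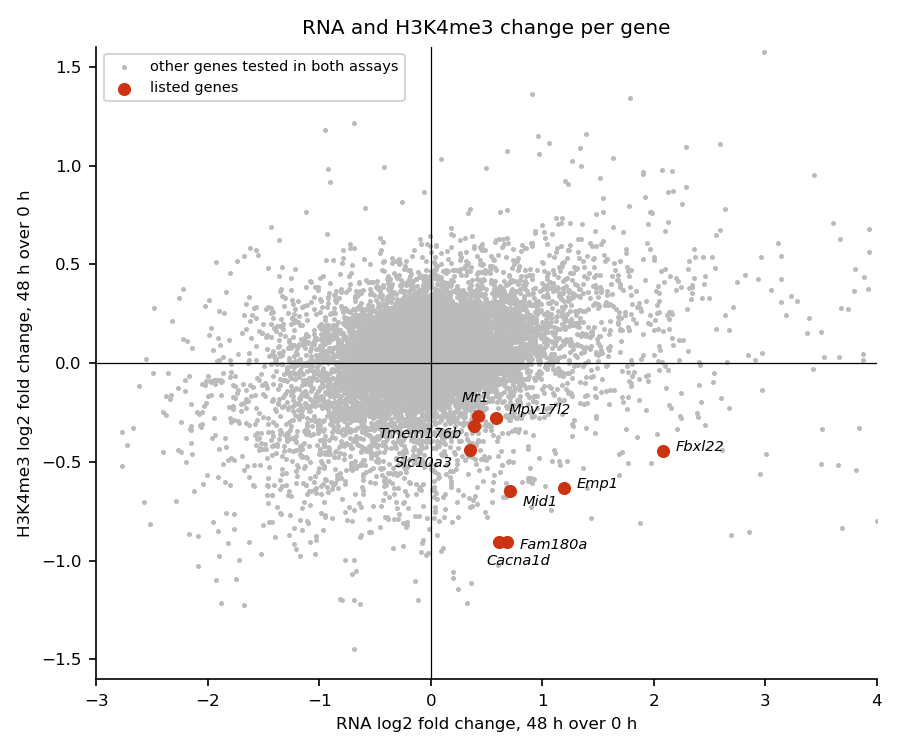
RNA log2 fold change (horizontal) against H3K4me3 log2 fold change (vertical), 48 h over 0 h, for each gene with a symbol tested in both assays (grey) and the 9 listed genes (red); 37 of 14350 genes lie outside the axes. The listed genes lie at the lower right, with RNA values from 0.35 to 2.09 and H3K4me3 values from -0.91 to -0.27.

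With TMM scaling, the change in each assay held in every library of the listed genes, although no library measured both assays. With total counts as the only scaling, 7 of the 9 genes kept separate groups in both assays. Each of the 9 genes had higher RNA in all 9 pairings of a 48 h with a 0 h library, and lower H3K4me3 in all 4 pairings, so neither assay's groups overlapped for any of them. The genes were chosen from these same libraries, which favours separate groups, so the separation is a description and no independent support. Of all genes tested, 22.1% had every 48 h RNA library above every 0 h library, 22.8% had both 48 h H3K4me3 libraries below both at 0 h, and 2.16% had both patterns. In the other directions, 25.8% had every 48 h RNA library below every 0 h library and 26.5% had both 48 h H3K4me3 libraries above both at 0 h. Relative to the mean at 0 h, the 27 RNA values at 48 h ran from 0.19 (Tmem176b) to 2.13 (Fbxl22) on the log2 scale. The 18 H3K4me3 values ran from -1.11 (Fam180a) to -0.15 (Mr1). The median log2 fold change of the 9 genes was 0.61 in RNA, beside -0.03 over all genes tested, and -0.45 in H3K4me3, beside 0.00.

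**Figure D2:**
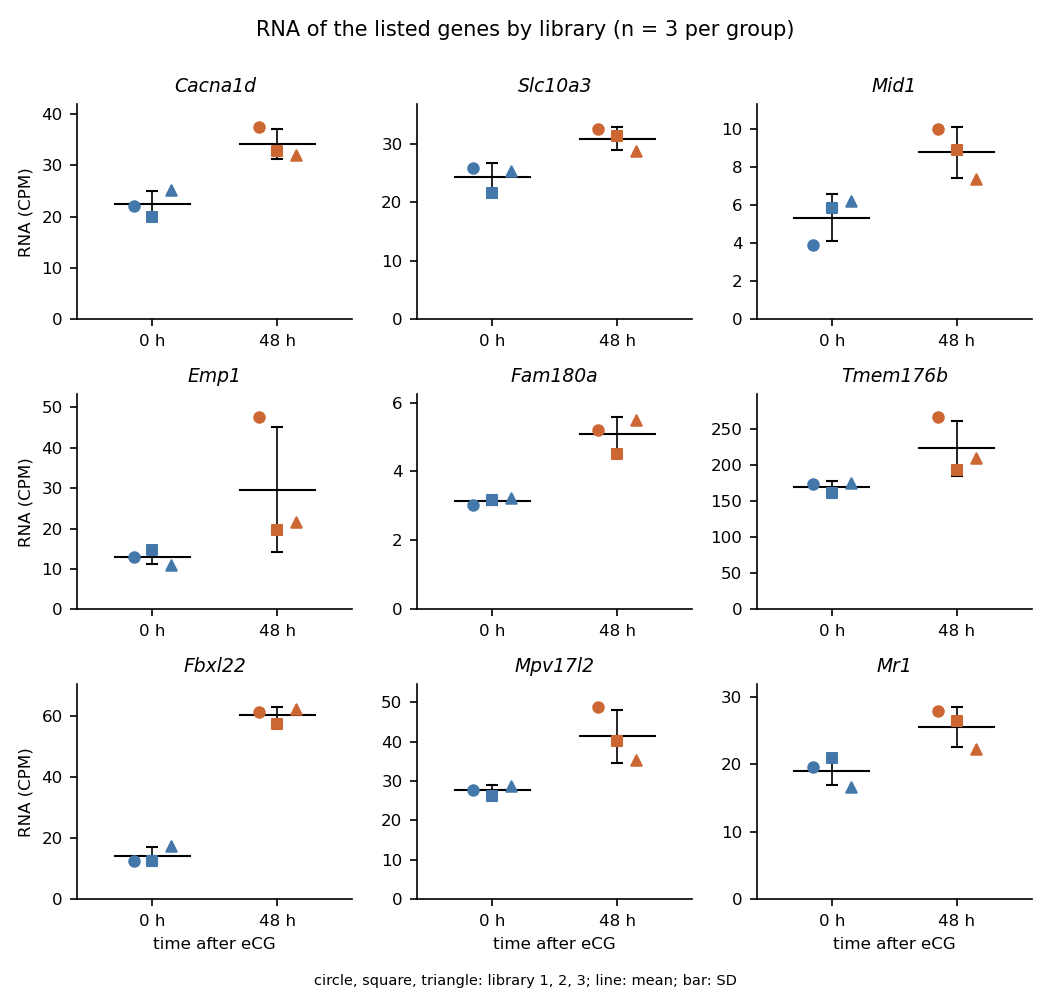
RNA in CPM (vertical) at 0 h and 48 h for each listed gene; points are libraries, lines are means and bars are SD (n = 3 per group). No gene has a 48 h library at or below a 0 h library; the smallest ratio of the lowest 48 h to the highest 0 h library is 1.06 at Mr1, and at Emp1 48 h library 1 stands apart.

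**Figure D3:**
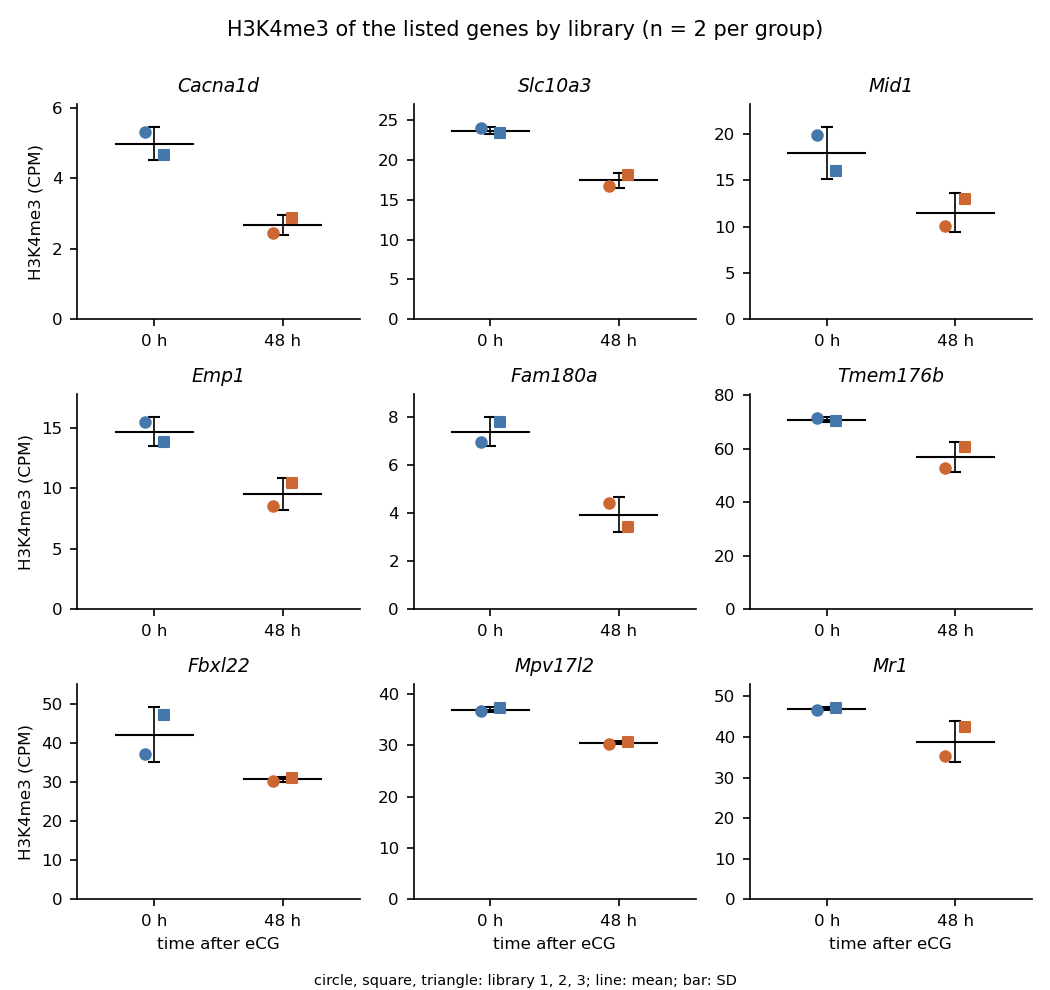
H3K4me3 in CPM (vertical) at 0 h and 48 h for each listed gene; points are libraries, lines are means and bars are SD (n = 2 per group). Both 48 h libraries lie below both 0 h libraries in each panel, with the highest 48 h library at 0.907 of the lowest 0 h library at Mr1.

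Among the ubiquitin ligase genes, Fbxl22 (gene ID 74165; chromosome 9, 66508459 to 66514593) encodes an F-box protein that recruits substrates to SCF ligases and is known from the sarcomere of muscle. Its RNA was 12.5, 12.5 and 17.5 CPM in 0 h libraries 1 to 3 and 61.4, 57.5 and 62.3 CPM in 48 h libraries 1 to 3. The means were 14.2 ± 2.89 and 60.4 ± 2.52 CPM (SD, n = 3), 4.26-fold higher at 48 h, and the groups lay far apart, since the lowest 48 h library was 3.28 times the highest 0 h library. Its H3K4me3 count was 37.2 and 47.1 CPM at 0 h and 30.3 and 31.2 CPM at 48 h, a log2 fold change of -0.45 ± 0.09 (SE). The 0 h libraries differed from each other by more than the 48 h libraries did. Without 0 h library 2 the fitted H3K4me3 difference was -0.28.

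Fbxl22 has a close neighbour with the opposite result in the mark. Usp3, which encodes a histone deubiquitinase, lies on the same strand and ends 45 bp before Fbxl22 begins, so that the promoter window of Fbxl22 overlaps the end of Usp3. The start window of Usp3 lies at 66593066 to 66593365, at the far end of that gene, so the starts of both genes are not adjacent. Usp3 RNA was 112, 120.3 and 119 CPM at 0 h and 221, 257 and 265 CPM at 48 h (log2 1.08 ± 0.10, adjusted p = 2.60e-04 by edgeR). H3K4me3 at Usp3 was 142.5 and 144 CPM at 0 h and 188 and 184.5 CPM at 48 h (log2 0.38 ± 0.07, adjusted p = 1.04e-04 by edgeR). RNA of both genes was higher at 48 h, whereas the mark was higher at Usp3 and lower at Fbxl22. Use of strand in counting is not given in the sources used here. Whether reads from the end of Usp3 entered the Fbxl22 count was not tested.

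Mid1 (gene ID 17318; chromosome X, 169685199 to 169990798) encodes a microtubule-bound ubiquitin ligase of the TRIM family that controls the phosphatase PP2A. RNA was 3.92, 5.88 and 6.23 CPM at 0 h and 10.04, 8.92 and 7.40 CPM at 48 h, with counts of 61 to 223 per library. H3K4me3 was 19.9 and 15.96 CPM at 0 h and 10.02 and 13.0 CPM at 48 h. The groups were apart in both assays, by little in RNA (the lowest 48 h library was 1.19 times the highest 0 h library), with log2 fold changes of 0.71 ± 0.22 (SE) in RNA and -0.65 ± 0.14 in H3K4me3. Within Mid1 lies the long noncoding RNA gene G530011O06Rik, whose H3K4me3 count rose from 6.83 ± 0.338 to 12.7 ± 2.11 CPM (SD, n = 2; log2 0.90 ± 0.17, adjusted p = 1.48e-04 by edgeR). That call was lost without 0 h library 1, at a log2 fold change of 0.83, in a fit that lost most calls over all genes. RefSeq places starts of this RNA on both X and Y, so reads of ovarian cells may align to either place. Mid1 spans that place on X and ends beyond it, and whether any of its own reads are affected alike was not tested. Its own RNA stayed under 1 CPM in each library.

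Cacna1d (gene ID 12289; chromosome 14, 30039941 to 30491156) encodes the pore of the L-type voltage-gated calcium channel Cav1.3. Its RNA was 22.0, 20.01 and 25.1 CPM at 0 h and 37.4, 32.9 and 32.0 CPM at 48 h, 1.52-fold higher on average (log2 0.61 ± 0.11). H3K4me3 was 5.31 and 4.66 CPM at 0 h and 2.46 and 2.86 CPM at 48 h, from counts of only 83, 56, 41 and 51. These values gave the second lowest log2 fold change of the list, -0.91 ± 0.25, at the lowest level of the mark. Exact Poisson 95% intervals, which cover counting error only, ran from 3.52 to 6.05 CPM in 0 h library 2 and from 2.13 to 3.76 CPM in 48 h library 2, and so overlapped. Averaged over its 4 libraries, the count of 3.82 CPM lay above 88.8% of 5129 gene IDs with no RNA count in any library, whose 90th percentile was 4.37 CPM.

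The starts of Cacna1d printed above differ in sequence and surroundings. Its upstream window overlaps Dcp1a, a gene for an mRNA decapping factor that overlaps Cacna1d over 11671 bp. Dcp1a did not pass in either assay (RNA log2 0.00 ± 0.10, adjusted p = 0.977; H3K4me3 log2 0.03 ± 0.07, adjusted p = 0.870; both by edgeR). Chdh, the choline dehydrogenase gene that overlaps the other end of Cacna1d by 528 bp, fell in RNA from 7.84 ± 2.99 to 3.05 ± 0.602 CPM (SD, n = 3; log2 -1.39 ± 0.30, adjusted p = 0.00903 by edgeR). Which start or window the deposited H3K4me3 count of Cacna1d covers is not given in the sources used here, so the count cannot be assigned to either sequence.

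The membrane protein genes were led by Emp1 (gene ID 13730; chromosome 6, 135362550 to 135383173), a tetraspan protein of the PMP22 family found at cell junctions of many epithelia. Emp1 RNA was 13.0, 14.6 and 11.1 CPM at 0 h and 47.5, 19.7 and 21.6 CPM at 48 h. Although the groups did not overlap, 48 h library 1 was 2.41 times 48 h library 2, and the mean of 29.6 ± 15.6 CPM rests on it. The log2 fold change of 1.19 ± 0.31 (SE) became 0.67 without that library. H3K4me3 was 15.5 and 13.9 CPM at 0 h and 8.58 and 10.4 CPM at 48 h (log2 -0.63 ± 0.15). No other gene lies within 5000 bp of Emp1.

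The same 48 h library stood apart in markers of other cell types. All 12 endothelial markers, 9 of 14 theca and stroma markers and 9 of 10 smooth muscle and pericyte markers were highest in 48 h RNA library 1. Summed endothelial markers were 117 to 124 CPM at 0 h and 692, 221 and 273 CPM in 48 h libraries 1 to 3, with Pecam1, Cdh5 and Kdr detected in each library. Summed theca and stroma markers were 2511 to 3108 CPM at 0 h and 7490, 3239 and 3399 CPM at 48 h, and smooth muscle and pericyte markers 358 to 377 CPM and 629, 251 and 311 CPM. Of the listed genes, 7 of 9 had their highest 48 h RNA value in that library, beside 42.0% of all genes tested. The part of these cells in the RNA of Emp1 and the other listed genes was not tested.

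Tmem176b (gene ID 65963; chromosome 6, 48833811 to 48845948) encodes a membrane protein of intracellular vesicles that conducts cations and is known from dendritic cells. Its RNA was 173, 160.5 and 175.5 CPM at 0 h and 266, 193 and 209 CPM at 48 h. Again 48 h library 1 was the highest, and without it the log2 fold change was 0.24 in place of 0.39 ± 0.12 (SE). H3K4me3 was 71.5 and 70.2 CPM at 0 h and 52.9 and 60.8 CPM at 48 h (log2 -0.32 ± 0.07). Summed immune markers, such as Lyz2, Cd74 and Csf1r, were 259 to 444 CPM at 0 h and 219 to 364 CPM at 48 h, and these ranges overlapped. None of the 13 immune markers tested passed in RNA.

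Tmem176b overlaps Tmem176a, a paralogue transcribed from the other strand, and a promoter window of each overlaps the other gene. The H3K4me3 counts of both genes differed by at most 4 in any library and cannot be told apart. The H3K4me3 difference at Tmem176a, log2 -0.31 ± 0.07, is therefore given as a description with no test. Tmem176a RNA was 79.4, 68.3 and 74.3 CPM at 0 h and 137, 82.7 and 91.4 CPM at 48 h, all higher at 48 h, with a log2 fold change of 0.49 ± 0.18 that did not pass (adjusted p = 0.0633 by edgeR). The test was passed without 48 h library 2, at 0.65.

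Slc10a3 (gene ID 214601; chromosome X, 74369217 to 74373349) belongs to the family of sodium and bile acid cotransporters, with no transported substrate assigned. RNA was 25.97, 21.6 and 25.4 CPM at 0 h and 32.6, 31.4 and 28.8 CPM at 48 h, the smallest log2 fold change of the list at 0.35 ± 0.10 (SE). H3K4me3 was 24.0 and 23.4 CPM at 0 h and 16.8 and 18.1 CPM at 48 h (log2 -0.44 ± 0.11), with replicates much closer to each other than to the other group. Its H3K4me3 count was identical in each library to that of Gm44504, a gene model that contains it and had at most 0.148 CPM of RNA. Ubl4a, a ubiquitin-like gene 668 bp away, had 32.3 ± 0.392 and 32.3 ± 0.0762 CPM of the mark and did not pass in either assay (RNA log2 -0.14 ± 0.10, adjusted p = 0.314; H3K4me3 adjusted p = 0.994; by edgeR).

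Mpv17l2 (gene ID 234384; chromosome 8, 70758649 to 70760932) encodes a protein of the mitochondrial inner membrane that helps assemble mitochondrial ribosomes. RNA was 27.8, 26.2 and 28.9 CPM at 0 h and 48.7, 40.1 and 35.3 CPM at 48 h (log2 0.58 ± 0.12). H3K4me3 was 36.7 and 37.2 CPM at 0 h and 30.2 and 30.7 CPM at 48 h (log2 -0.28 ± 0.08), a small difference with very close replicates. The long noncoding RNA gene 6330537M06Rik, which has no count in either assay, starts on the other strand in nearly the same window (70760865 to 70761164). A mark at that place cannot be assigned to Mpv17l2 alone. Of its neighbours, Rab3a, a vesicle trafficking GTPase gene 40 bp away, rose in RNA from 10.9 ± 0.979 to 18.2 ± 1.98 CPM (SD, n = 3; log2 0.73 ± 0.13, adjusted p = 0.00432 by edgeR) and had 36.9 ± 1.59 and 42.8 ± 1.36 CPM of H3K4me3 (log2 0.21 ± 0.08, adjusted p = 0.0988). Ifi30, a lysosomal thiol reductase gene 1840 bp away, rose in RNA by a log2 fold change of 0.50 ± 0.10 (adjusted p = 0.00746 by edgeR), with H3K4me3 at -0.15 ± 0.09 (adjusted p = 0.380). RNA of Rab3a and Ifi30 rose like that of Mpv17l2, while their H3K4me3 differences did not pass. Rab3a lies on the other strand from Mpv17l2, with start windows between 70754453 and 70755151. The ends of both genes are therefore close, and their starts are not.

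Mr1 (gene ID 15064; chromosome 1, 155127874 to 155146814) encodes the class I-like molecule that presents vitamin B metabolites to mucosal-associated invariant T cells. Its RNA was 19.5, 20.9 and 16.7 CPM at 0 h and 27.9, 26.4 and 22.3 CPM at 48 h (log2 0.42 ± 0.13). H3K4me3 was 46.8 and 47.2 CPM at 0 h and 35.4 and 42.4 CPM at 48 h (log2 -0.27 ± 0.08). Its groups were the closest of the list in both assays. The H3K4me3 difference was -0.16 without 48 h library 1 and -0.41 without 48 h library 2, so the 48 h libraries decided its size.

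Fam180a (gene ID 208164; chromosome 6, 35312743 to 35326141) had the lowest RNA counts of the list, 47 to 113 per library. RNA was 3.02, 3.16 and 3.22 CPM at 0 h and 5.21, 4.52 and 5.49 CPM at 48 h (log2 0.69 ± 0.20), with 0 h libraries close together. H3K4me3 was 6.97 and 7.81 CPM at 0 h and 4.44 and 3.42 CPM at 48 h, 1.88-fold lower at 48 h (log2 -0.91 ± 0.22). Here 48 h library 2 was the lowest, whereas at the 8 other genes 48 h library 1 was, beside 45.7% of all genes tested. Slc13a4, a sulfate transporter gene 4616 bp away, rose in RNA from 0.262 ± 0.182 to 1.36 ± 0.321 CPM (SD, n = 3; log2 2.34 ± 0.54, adjusted p = 0.0115 by edgeR), from 1 to 25 counts per library.

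**Figure D4:**
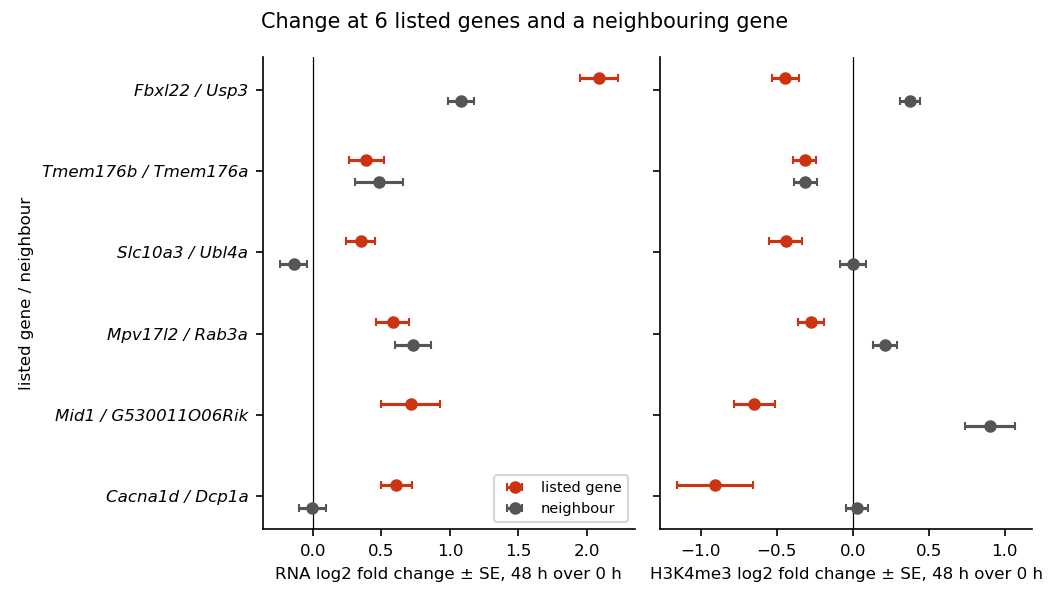
RNA (left) and H3K4me3 (right) log2 fold change, 48 h over 0 h, with SE, for 6 listed genes (red) and 1 neighbouring or overlapping gene each (grey); a missing point means too few RNA counts to test. The mark is lower at each listed gene and at Tmem176a, whose counts nearly equal those of Tmem176b, close to 0 at Ubl4a and Dcp1a, and higher at Usp3 and G530011O06Rik.

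The listed genes nearest the threshold were Tmem176b, Mid1 and Mr1, for which the RNA adjusted p by edgeR, given only as the value the threshold reads, was 0.0416, 0.0349 and 0.0328. Just outside lay Ogn (RNA 1.16, H3K4me3 -0.52, H3K4me3 adjusted p = 0.0542), Atg4a (0.61, -1.02 and 0.0589) and Mgst1 (0.46, -0.21, RNA adjusted p = 0.0600), log2 values by edgeR.

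Relatives and partners of the 9 proteins, from lists chosen by function, did not share one pattern. Of 110 such genes tested in RNA 35 passed, beside 31.8% of all genes tested, and of 123 tested in H3K4me3 16 passed, beside 8.42%. The first count was 17, 16 and 20 without RNA libraries 2 or 3 at 0 h or 3 at 48 h. Calls over all genes were then 2956, 2882 and 3084 in place of 4585. The second count was also lower without 0 h H3K4me3 library 1 or 2 or 48 h library 1. Each of these fits leaves 1 library in a group, and calls over all genes were fewer as well. The only one of the 16 called lower was Tmem176a, whose H3K4me3 counts nearly equal those of Tmem176b and are no independent result. Among voltage-gated calcium channel subunits, 2 of 13 were called higher in RNA and 3 lower, beside 16.0% and 15.8% of all genes tested. Their median log2 fold change was -0.31, beside -0.03. H3K4me3 was called higher at 5 of 17 and lower at 0, beside 6.35% and 2.08%. The H3K4me3 calls of Cacna1b, Cacna1g and Cacna2d2 were each lost without 0 h library 1 or 2. The RNA calls of Cacna1c and Cacna2d2 were each lost without 0 h library 2 or 48 h library 2 or 3. Cacna1a, the pore of P/Q-type channels, rose in RNA from 33.7 ± 3.20 to 101 ± 16.2 CPM (SD, n = 3; log2 1.58 ± 0.13, adjusted p = 2.04e-04 by edgeR), with H3K4me3 at -0.01. Cacnb1, an auxiliary subunit, fell by 1.36 on the log2 scale in RNA.

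MHC class I and class I-like presentation genes, which include the partners of Mr1, were called higher in RNA at 8 of 15 and lower at 2, beside 16.0% and 15.8% of all genes tested. Their median RNA log2 fold change was 0.30, beside -0.03 over all genes, and 1 of 15 was called in the mark, as higher. The chaperone Calr rose from 1673 ± 207 to 3044 ± 354 CPM (SD, n = 3; log2 0.86 ± 0.14), Pdia3 by 0.63 and Tapbpl by 0.63. Tap2, which pumps peptides into the endoplasmic reticulum, rose by 0.67, a call lost without 0 h library 1 (0.63). Calr also had the called rise of H3K4me3 (log2 0.23), lost without any single library of that assay (0.17 to 0.28).

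FBXL proteins and the SCF core had 4 rises and 3 falls in RNA among 24 genes, near the shares of all genes tested (16.0% higher and 15.8% lower), with Fbxl13 at -1.92 and Fbxl15 at 0.62. H3K4me3 was called higher at 4 of the 24 and lower at 0, beside 6.35% and 2.08% of all genes tested. These calls, at Fbxl17, Cul1, Fbxl15 and Fbxl20, were each lost without 0 h H3K4me3 library 1 (0.19 to 0.30). That fit leaves 1 library at 0 h and lost most calls over all genes, so such losses are not particular to these genes. Of 7 partners and relatives of Mid1 tested in RNA, Mid1ip1 rose (log2 0.92), Mid2 fell (-0.42) and 5 did not pass, beside the same shares of all genes tested. The call of Mid2 was lost without 0 h library 2 or 3 or 48 h library 2 or 3 (-0.46 to -0.31). H3K4me3 was called higher at 2 of 8 genes of that list and lower at 0, beside 6.35% and 2.08% of all genes tested. Mid1ip1 stood at 0.29, a call lost without 0 h library 1 (0.23).

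In the MPV17 and mitoribosome assembly list, 1 of 17 genes was called higher in RNA and 1 lower, and 0 of 17 passed in H3K4me3. Over all genes tested, 16.0% were called higher and 15.8% lower in RNA, and 8.42% passed in H3K4me3. These shares also stand beside the short lists below, and no count in them is read as a trait of a family. For SLC10 transporters 1 of 2 tested rose in RNA (Slc10a7, log2 0.38, lost without 0 h library 2 at 0.37), and the mark passed at 0 of 6. No relative of Emp1 passed in either assay (3 genes in RNA, 4 in H3K4me3). Of 10 TMEM176 and MS4A genes 1 was called higher in RNA (Ms4a4d, log2 1.73) and 0 lower.

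Writers and erasers of H3K4 methylation were called lower in RNA at 7 of 19 genes and higher at 0, beside 15.8% and 16.0% of all genes tested, with a median log2 fold change of -0.20, beside -0.03 over all genes. The methyltransferase genes Kmt2d, Setd1b and Kmt2a fell by 0.52, by 0.49 and by 0.40 on the log2 scale, and the demethylase gene Kdm1b (-0.46) fell as well. The call of Kmt2d was lost without 0 h library 3 (-0.44) or 48 h library 2 (-0.44), and that of Kdm1b without 0 h library 2 (-0.40) or 3 (-0.47) or 48 h library 2 (-0.35). H3K4me3 was called higher at 3 of these 19 genes and lower at 0, and calls of H3K4me3 over all genes were mostly rises (6.35% of genes called higher and 2.08% lower). The H3K4me3 calls, at Kdm5b, Kmt2a and Kmt2c, were each lost without 0 h library 1 (0.16 to 0.24) or 48 h library 1 (0.12 to 0.18). Both fits leave 1 library in a group, and calls over all genes were fewer in both. Labelled as granulosa cells, the RNA libraries had 24320 to 30680 CPM of summed granulosa markers at 0 h and 56380 to 58410 CPM at 48 h, led by Inha, Gja1 and Inhbb, with each of the 15 markers detected. The markers did not all move together: 11 of the 15 were called higher in RNA and 2 lower, beside 16.0% and 15.8% of all genes. In H3K4me3 9 of the 15 were called higher and 2 lower, beside 6.35% and 2.08%. Summed oocyte markers were 181 to 205 CPM at 0 h and 59.9 to 138 CPM at 48 h, and surface epithelium markers 165 to 274 CPM and 173 to 265 CPM. Red cell markers were 68.5 to 129.5 CPM at 0 h and 164 to 685.5 CPM at 48 h, mostly Alas2, with the globin genes Hba-a1, Hba-a2, Hbb-bs and Hbb-bt at 0. Their part in the listed genes' values was not tested.

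The fitted direction of each listed gene was the same under each alternative setting tried. The genes were picked for these directions in the same counts, and their groups did not overlap. Leaving out a library could therefore hardly reverse a sign, and the kept direction is no independent support. RNA log2 fold changes stayed above 0 in all 11 alternatives for all 9 genes, and those of H3K4me3 below 0 in all 10. With total counts as the only scaling, the median of all genes moved from -0.03 to -0.20 in RNA, the share of RNA calls that were higher from 50.2% to 26.8%, and that of H3K4me3 calls from 75.4% to 52.3%. RNA values were then 0.18 for Slc10a3, 0.22 for Tmem176b and 0.25 for Mr1, still above that median, and the groups of Tmem176b and Mr1 overlapped in RNA. The number of listed genes past both thresholds varied more, from 1 without 0 h H3K4me3 library 1, where 282 genes were called at all in place of 2062, to 9.

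**Figure D5:**
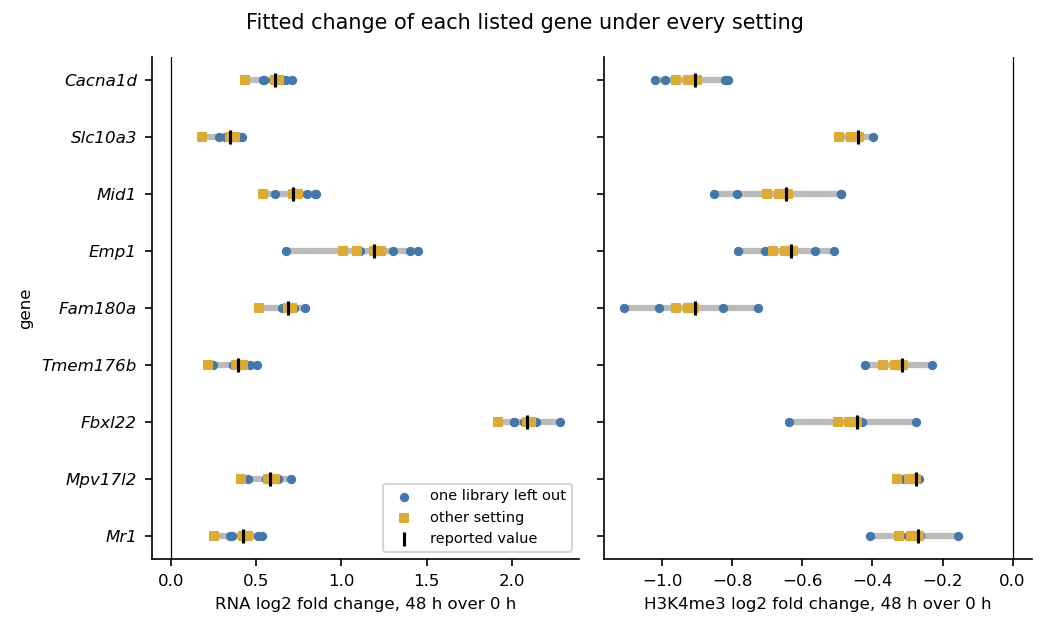
Fitted log2 fold change, 48 h over 0 h, of each listed gene in RNA (left) and H3K4me3 (right): reported value (black bar), fits with 1 library left out (blue) and other settings (yellow), with the range in grey. No value crosses 0, which the choice of these genes by direction favoured. The widest RNA range is at Emp1, from 0.67 to 1.45.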

How the data were processed

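RNA and H3K4me3 were compared at 48 h and 0 h of eCG in 10 of the 11 samples; the input DNA library was not analysed here. The deposited values are raw counts for each Entrez gene ID in both tables, judged from whole numbers with unequal totals (12013849 to 26343971 per RNA library, 11989769 to 17968033 per H3K4me3 library). Per the submitters' processing notes, FastQC 0.11.5, Picard, STAR, kallisto and sleuth are listed for RNA and Trimmomatic, Bowtie2 2.2.9, MACS2 2.2 and ChIPseeker 1.18.0 for ChIP-seq, on mm10, with no role or order given; for the counting program, strand and window per gene: not given in the sources used here. H3K4me3 libraries carry the numbers of their columns, which were matched to groups and not to single samples. Symbols and coordinates came from RefSeq GRCm38.p6 (24742 of 24809 and 24472 of 24541 IDs matched).

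Each assay was fitted over its whole table with edgeR 4.0.16 (R 4.3.3): TMM, filterByExpr, quasi-likelihood test, Benjamini-Hochberg adjustment, call at adjusted p under 0.05. All 9 genes passed the filter. SE came from the test statistic; with 2 or 3 libraries it rests on variation shared across genes. Replicates are labelled biological; they differed beyond sampling noise (chi-square per degree of freedom 1.69 to 38.5). The fit was tested on simulated data with 200 changed genes. The genes and lists were chosen with earlier results of these data known. Named are the 9 genes, genes overlapping them or within 5000 bp, called list genes with the largest change, and genes passing both calls with at least 5 CPM, for which a result is not reported here; Ogn, Atg4a and Mgst1 were named after their values were seen. Alternatives were DESeq2 1.42.0 (size factors or test), total count scaling, no filter, a replicate block and each library left out.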

Additional observations from a re-analysis of the deposited data

How the results depend on the processing

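Genes called in RNA numbered 4585 and in H3K4me3 2062. Leaving out 1 library gave 2882 to 5345 genes in RNA and 282 to 2764 in H3K4me3. Counts moved by over 1.5 times without 0 h RNA library 2 (2956) or 3 (2882), and without H3K4me3 libraries 1 (282) or 2 (1252) at 0 h or 1 at 48 h (1181). In H3K4me3, DESeq2's test called 864. Genes called higher in RNA and lower in H3K4me3 numbered 10; leaving out 1 library gave 1 to 24, of which 1 to 9 were listed genes (fewest without 0 h H3K4me3 library 1, most without 48 h H3K4me3 library 2). The number was also 5 without 0 h RNA library 3 and 6 without 0 h H3K4me3 library 2. They numbered 16 without a filter, 9 of them listed, and 8 with DESeq2's test, 5 of them listed. Family list genes called numbered 35 in RNA and 16 in H3K4me3; leaving out 1 library gave 16 to 40 and 1 to 18, and DESeq2's test called 6 in H3K4me3. The cause of these shifts was not tested. Listed genes with separate groups in both assays numbered 9 with DESeq2's size factors and 7 with total count scaling; leaving out a library cannot lower this number. Of the alternative values of listed genes, 186 moved by less than the spread between replicates, 3 moved by more and 0 changed sign. The choice of these genes by direction favoured unchanged signs.

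The replicate block, which takes the library numbers as pairs, called 3312 genes in RNA, 1280 in H3K4me3 and 5 as higher in RNA and lower in H3K4me3 (3 of them listed: Emp1, Fbxl22 and Mr1), with 21 and 9 family list genes. Whether the numbers pair the libraries cannot be decided from these values. Deviations of same-numbered libraries correlated at -0.21, -0.15 and -0.13 in RNA. In H3K4me3 the correlation was 0.025 over genes that passed the filter, -0.01 over all genes and -0.38 over genes above 5 CPM. A crossed replicate block, chosen after seeing the data, called 4144 genes, 29 of them also higher in RNA while lower in H3K4me3, and 29 family list genes. Depth limits Cacna1d and Fam180a most, with 41 to 109 H3K4me3 counts per library.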
